A study of Rattus norvegicus with 6 samples.

Results

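The cytosolic translation initiation and elongation factors were examined in INS-1 insulinoma cells that express a misfolded proinsulin. Members were all genes in the array's probe-to-gene table whose symbol starts with Eif and a digit from 1 to 6, or with Eef1 or Eef2. The eIF2 kinases (Eif2ak genes), Eif4ebp1 and the Argonaute genes once named Eif2c were left out. The rule took 59 symbols, of which 54 had at least 1 probeset with a single gene symbol, among 12603 genes measured in the same way. These 54 genes were represented by 86 probesets, and 23 of them had more than 1. Eif3e and Eif5, both named with a near-identical copy or pseudogene on the same probesets, have no value here, nor do Eif3el1, Eif5-ps1 and Eif2s3y. Eif1 and Eif3g were not analysed here.

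Translation begins when eIF2, bound to GTP and the initiator tRNA, joins the small ribosomal subunit together with eIF1, eIF1A, eIF3 and eIF5, while eIF4F brings the capped mRNA. After start codon recognition eIF2 leaves in its GDP form and must be recharged by the exchange factor eIF2B. Elongation then depends on eEF1A, which delivers aminoacyl-tRNA, its exchange complex eEF1B, and the translocase eEF2. In ER stress PERK phosphorylates the α subunit of eIF2, which turns it into an inhibitor of eIF2B and lowers initiation, so that these factors stand at the point where the unfolded protein response (UPR) acts on protein synthesis. Arrays measure mRNA only and do not read phosphorylation or protein amount.

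The cells are a single clone of INS-1, a rat insulinoma line that stands in for the pancreatic β-cell, in which doxycycline (Dox) induces insulin 2 C96Y fused to GFP. Cultures were left untreated, received Dox, or received Dox together with 4μ8c, an inhibitor of the IRE1 endoribonuclease. Each group had 1 array in each of 2 experiments, 6 in all, and treatment lasted 48 h with Dox at 4 μg/ml and 4μ8c at 5 μM in the labels (the methods of the study state a lower Dox concentration). All groups carry the inducible gene, so that effects of Dox itself and of mutant proinsulin cannot be told apart, and whole-culture RNA does not separate fewer cells from less RNA per cell.

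Values are log2 signals that lie around 0 for each probeset, so that they carry no absolute level and no check of a cell type by marker level was possible. In experiment 1 they are centred on the median of the 3 arrays, but how experiment 2 was centred is not known, so values are compared only between arrays of one experiment. Of 7 β-cell marker genes, Ins1 differed by -0.03 and Ins2 by -0.13 between Dox and untreated cells, without passing the test, while Mafa fell by 0.56 (adjusted p = 0.0090, limma) and Iapp by 0.25 (adjusted p = 0.0408). Slc2a2 was at -0.17, Pdx1 at -0.22 in experiment 1 and 0.04 in experiment 2, and Nkx6-1 was higher by 0.09, also without passing. Gcg, which marks α-cells, fell by 2.22 (adjusted p = 0.000721). The other markers with a value were Irx2 and Ttr of α-cells, Ppy of PP cells, Col1a1 of fibroblasts and Cd68 of macrophages, and none passed with Dox. Irx2, Ttr and Col1a1 were at 0 on all 3 arrays of experiment 1, and no listed δ-cell marker had a value. With Dox+4μ8c, Mafa and Gcg were higher than with Dox by 0.62 and 0.86 (adjusted p = 0.0189 and 0.0210), Gcg differed from untreated cells by -1.36 (adjusted p = 0.0061), and no other marker passed in these comparisons. Their part in the results below was not tested. In experiment 1, 25.5% of all probesets and 14 of the 86 factor probesets (16.3%) were listed at exactly 0 on all 3 arrays, compared with 0.0039% of all probesets in experiment 2. For 6 factor genes no difference can therefore be seen in experiment 1 (Eef1akmt2, Eef1b2, Eif2s1, Eif3k, Eif4enif1 and Eif6). The Dox array of experiment 2 had the widest spread over all probesets (SD 0.18, compared with 0.05 to 0.12 on the other 5 arrays). Over the factor genes the untreated array of experiment 1 had the widest spread (SD 0.13, compared with 0.11 on the Dox array of experiment 2 and 0.04 to 0.07 on the other 4). Changes below are differences in log2 value between arrays of one experiment, averaged over both, with the standard error (SE) and Benjamini-Hochberg adjusted p of limma, fitted to all genes with the experiment as a term.

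With Dox, the mRNAs of most factors changed little. Of the 54 genes, 3 passed the test as higher than in untreated cells (5.56%), compared with 4.42% of all genes, and none passed as lower, compared with 2.01% of all genes. The 3 genes were Eif1a, Eif2s2 and Eif2b3. When probesets listed at 0 throughout experiment 1 were left out, the same 3 passed as higher, beside 5.96% of all remaining genes. Eif5a2 then passed as lower, beside 2.87% of all remaining genes. At an unadjusted p under 0.05, 10 were higher and 2 lower (18.5% and 3.7%, compared with 11.2% and 8.44% of all genes). Eif1a alone was at least 1.5 fold higher (0.968% of all genes were), and none was 1.5 fold lower. The median change was 0.02 (all genes 0.01), with a range from -0.32 to 0.64 and an SD of 0.14 (all genes 0.17). The 95% interval lay within a 1.5 fold change in either direction for 53 of the 54 genes, the exception being Eif1a. The same held for 12229 of all 12603 genes, so that it does not set the factors apart. The 53 include the 6 genes listed at 0 on all arrays of experiment 1, which could show no change there. In both experiments 25 genes were higher and 7 lower with Dox (46.3% and 13.0%, compared with 26.6% and 24.8% of all genes), and 14 moved in opposite directions. The other 8 did not differ at all in experiment 1 (14.8%, compared with 25.2% of all genes). Such genes cannot count as higher or lower in both, which lowers the shares of all genes more than those of the factors. Across the 54 genes the changes of the 2 experiments had a Pearson r of 0.51 (0.63 over all genes), which describes arrays that share a cell line and processing.

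**Figure D1:**
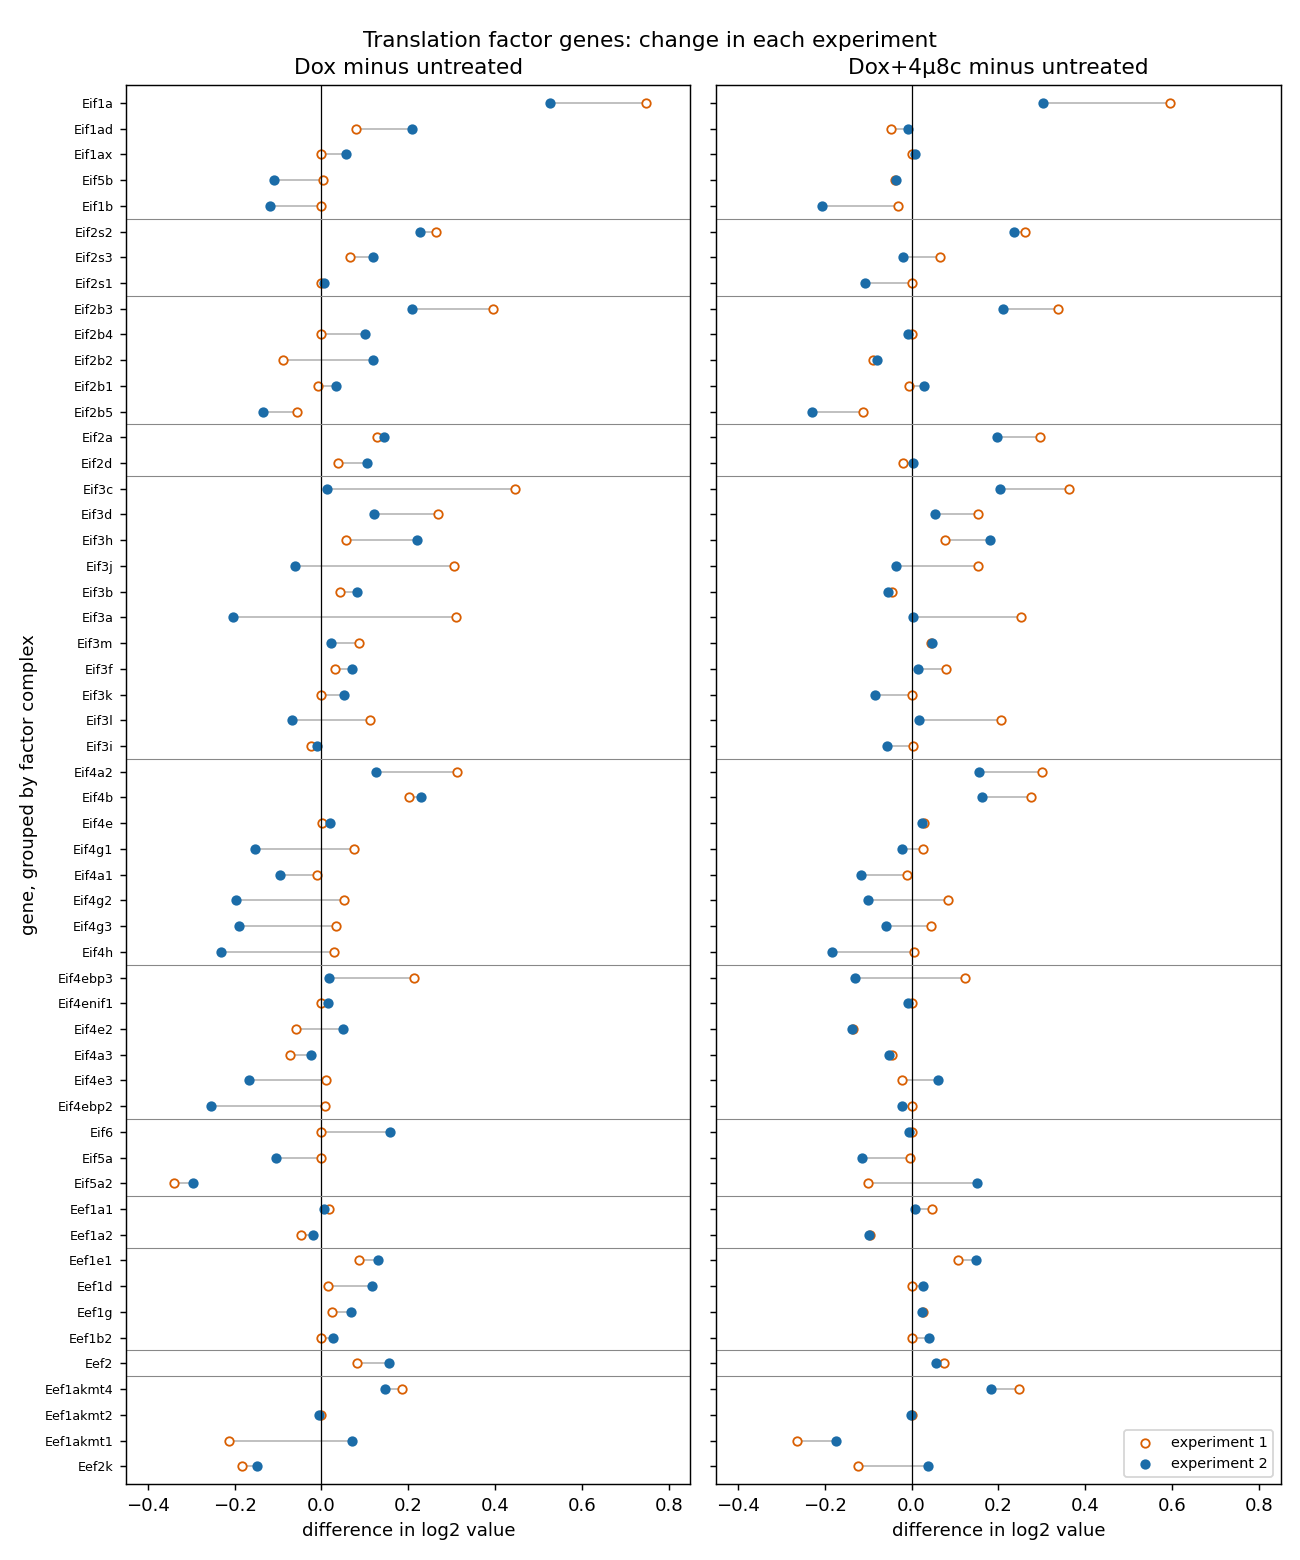
Difference in log2 value from the untreated array of the same experiment for each of the 54 factor genes, with Dox (left) and Dox+4μ8c (right). Open circles are experiment 1, filled circles experiment 2, a grey line joins the pair, and horizontal lines separate the complexes in the order of the text. With Dox Eif1a is at 0.75 and 0.53, and all other factors lie between -0.34 and 0.45.

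Among the factors that act at the start codon, Eif1a rose. It encodes eIF1A, which binds the decoding site of the small subunit and, with eIF1, keeps the scanning complex open until a start codon is met. Its values were -0.60 and -0.15 on the untreated arrays of experiments 1 and 2, 0.15 and 0.38 with Dox, and 0.00 and 0.15 with Dox+4μ8c. Within each experiment the Dox array was highest and the untreated array lowest. The change with Dox was 0.75 and 0.53 in experiments 1 and 2, on average 0.64 (SE 0.08, adjusted p = 0.0071), which is 1.55 fold. All 4 of its probesets were higher in both experiments, by 0.67 to 0.79 in experiment 1 and by 0.24 to 0.64 in experiment 2. The lowest value, 0.24, came from a probeset that was at 0.79 in experiment 1. Eif1a passed in every fit that left out 1 array, and after quantile normalization (adjusted p = 0.0495), but not without the experiment term (adjusted p = 0.0824). For Dox against untreated, leaving out either Dox+4μ8c array gives the same fit.

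The other start codon factors did not pass. Eif1ax, the X-linked gene for the same factor, differed by 0.03 (95% interval -0.09 to 0.14) and was at 0.00 on all 3 arrays of experiment 1. Eif1a and Eif1ax are close copies, so that probes of one may also bind the mRNA of the other. Their probesets gave distinct values here. Eif1ad, which encodes a protein with an eIF1A-like domain, was at 0.14 (adjusted p = 0.20), higher in both experiments. Eif1b, a copy of the eIF1 gene, and Eif5b, the GTPase that joins the subunits, were at -0.06 and -0.05 with changes of 0.00 in experiment 1.

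**Figure D2:**
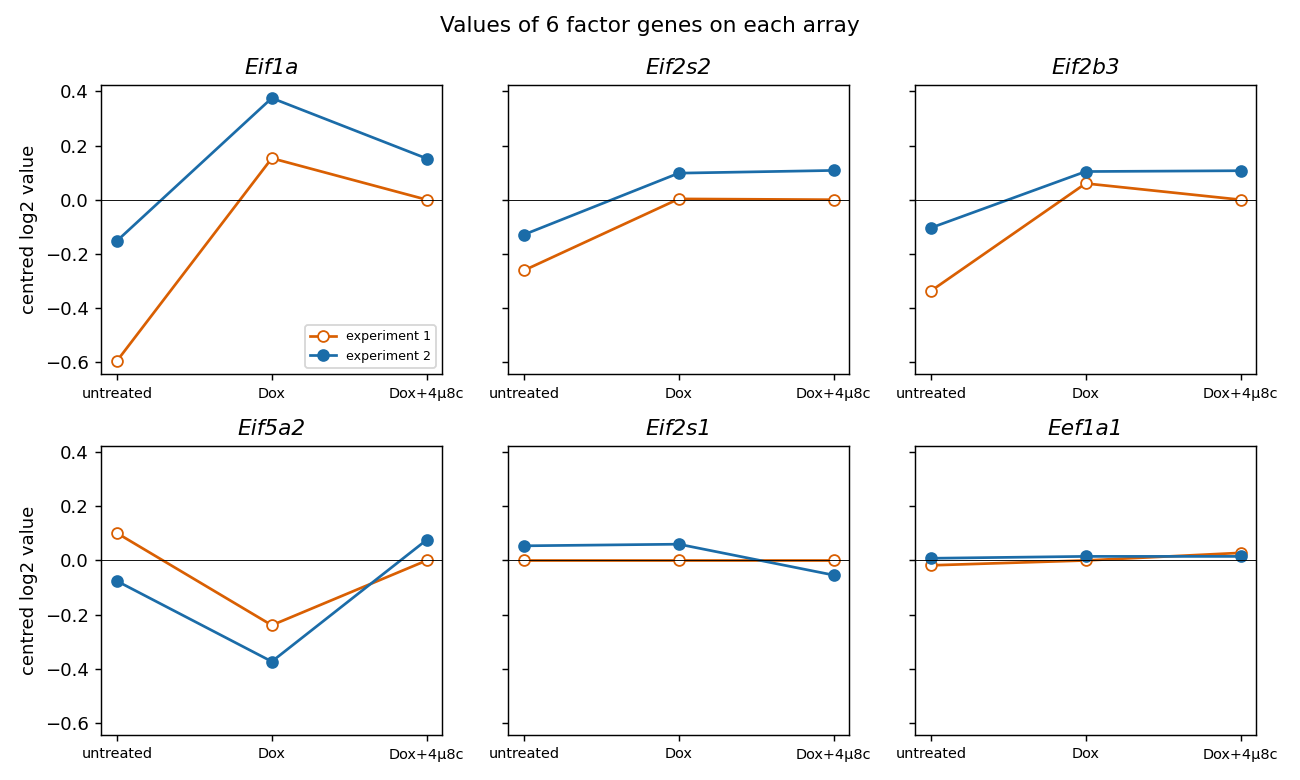
Centred log2 value of 6 factor genes on each of the 6 arrays, with lines joining the 3 arrays of experiment 1 (open circles) and experiment 2 (filled circles). Eif1a, Eif2s2 and Eif2b3 are lowest on the untreated array of both experiments, Eif5a2 is lowest on the Dox array of both, and Eif2s1 and Eef1a1 stay between -0.05 and 0.06.

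Of the 3 measured subunits of eIF2, Eif2s2 rose. Eif2s2, the β subunit that holds the GTPase-activating factor eIF5, had values of -0.26 and -0.13 on the untreated arrays, 0.00 and 0.10 with Dox, and 0.00 and 0.11 with Dox+4μ8c. Within each experiment both treated arrays were above the untreated array. The change with Dox was 0.26 and 0.23, on average 0.25 (SE 0.05, adjusted p = 0.0319), or 1.19 fold. Eif2s1, the α subunit that PERK phosphorylates, was at 0.00 on all 3 arrays of experiment 1 and at 0.05, 0.06 and -0.05 on the untreated, Dox and Dox+4μ8c arrays of experiment 2. Its change with Dox was 0.00 (95% interval -0.12 to 0.13). Eif2s3, the γ subunit that binds GTP and the initiator tRNA, was higher by 0.07 and 0.12 (mean 0.09, adjusted p = 0.40).

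Of the 5 subunits of eIF2B, Eif2b3 rose. It encodes the γ subunit, which forms the catalytic part of the exchange factor with the ε subunit Eif2b5. Eif2b3 was at -0.34 and -0.10 on the untreated arrays, 0.06 and 0.10 with Dox, and 0.00 and 0.11 with Dox+4μ8c, again with both treated arrays above the untreated array of the same experiment. Its change with Dox was 0.40 and 0.21, on average 0.30 (SE 0.06, adjusted p = 0.0371), or 1.23 fold. Eif2b5 itself was lower in both experiments, by 0.06 and 0.13 (mean -0.10, adjusted p = 0.37). The regulatory subunits Eif2b1, Eif2b2 and Eif2b4 were at 0.01, 0.02 and 0.05, with Eif2b2 at -0.09 in experiment 1 and 0.12 in experiment 2. Eif2a and Eif2d, which encode alternative carriers of the initiator tRNA, were higher in both experiments, by 0.14 and 0.07 on average (adjusted p = 0.22 and 0.44).

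The calls for Eif2s2 and Eif2b3, each from 1 probeset, rest on the whole set of arrays. Neither passed without the experiment term (adjusted p = 0.103 and 0.107), without either untreated array or without either Dox+4μ8c array. Leaving out either Dox+4μ8c array gives the same fit for this comparison. Nor did either gene pass after quantile normalization or when probesets were tested singly. Without Dox replicate 2 Eif2s2 did not pass (adjusted p = 0.0675), nor did Eif2b3 without Dox replicate 1 (adjusted p = 0.0599) or with each array centred on its median (adjusted p = 0.0509).

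Promoter sequence was read for the members that the table of RefSeq starts holds, 50 of the 54 (GRCr8, 250 bases before to 50 after each listed start), because PERK and IRE1 act on mRNA through transcription factors with known motifs. On both strands 4 patterns were searched. They were TGATGNAA, the core of the C/EBP-ATF response element (CARE) through which ATF4 acts, the ER stress response element (ERSE), the core TGACGTGG of the element bound by XBP1 and ATF6, and the E-box CACGTG, which can overlap the end of the ERSE. Each match is a description of letters and not of a bound site. Only Eif2s2 among the 50 genes held the CARE pattern (2.0%, compared with 2.12% of the 10401 array genes with a listed start), at position -36 from its start. Its upstream sequence and those of Eif2b3, which also passed the test, and Eif5a2, the member with the lowest change, are shown with matches to the 4 patterns in capitals.
Eif2s2, chr3:163855571-163855820, minus strand: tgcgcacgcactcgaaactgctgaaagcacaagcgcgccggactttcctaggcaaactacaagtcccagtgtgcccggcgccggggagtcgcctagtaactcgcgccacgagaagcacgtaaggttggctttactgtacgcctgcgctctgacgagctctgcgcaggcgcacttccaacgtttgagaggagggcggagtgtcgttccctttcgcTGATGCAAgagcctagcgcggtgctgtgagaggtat
Eif2b3, chr5:135728592-135728841, plus strand: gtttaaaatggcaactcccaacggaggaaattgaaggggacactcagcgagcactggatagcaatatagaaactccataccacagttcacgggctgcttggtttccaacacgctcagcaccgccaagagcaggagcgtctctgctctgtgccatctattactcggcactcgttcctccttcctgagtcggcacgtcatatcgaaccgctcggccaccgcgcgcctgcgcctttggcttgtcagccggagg
Eif5a2, chr2:113657584-113657833, plus strand: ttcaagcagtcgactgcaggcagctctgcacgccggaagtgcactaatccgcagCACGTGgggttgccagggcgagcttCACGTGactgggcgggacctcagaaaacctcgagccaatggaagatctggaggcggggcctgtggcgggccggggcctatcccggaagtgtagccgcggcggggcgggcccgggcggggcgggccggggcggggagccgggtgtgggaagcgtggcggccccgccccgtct
The Eif2b3 window held none of the 4 patterns, and neither did the windows of Eif1a. The E-box was found at 12 of the 50 genes (24.0%, compared with 9.76% of array genes), among them Eif4e, Eif4g1, Eif5a, Eif5a2, Eef2 and Eef2k. The ER stress response element was found at no member (0.163% of array genes) and the XBP1 and ATF6 core at Eif3a only (2.0%, compared with 0.913%).

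The eIF3 complex, the scaffold that holds the small subunit open for mRNA, had 11 measured subunits, and none passed in any comparison with all arrays in the fit. Their median change with Dox was 0.05, from -0.02 to 0.23, with 6 higher and 1 lower in both experiments. Eif3c, a core subunit that binds eIF1, had the largest mean of 0.23 (SE 0.10, adjusted p = 0.27), but went from 0.45 in experiment 1 to 0.01 in experiment 2. One of its 2 probesets was higher in both (0.39 and 0.30) and the other was not (0.50 and -0.28). Eif3c passed without Dox replicate 2 (0.41, adjusted p = 0.0202) and as a single probeset. Eif3d, the subunit that can bind the cap, was higher by 0.27 and 0.12 (adjusted p = 0.10) and Eif3h by 0.06 and 0.22 (adjusted p = 0.24). The 2 probesets of Eif3h had mean changes of 0.283 and -0.004. Eif3a, the largest scaffold subunit, and Eif3j, which is loosely attached, changed direction, from 0.31 to -0.20 and from 0.31 to -0.06. Eif3b, Eif3f, Eif3i, Eif3k, Eif3l and Eif3m had mean changes between -0.02 and 0.06. Of these, Eif3l also changed direction, from 0.11 in experiment 1 to -0.07 in experiment 2.

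No gene of eIF4F and its partners passed with all arrays in the fit, and Eif4b passed with Dox when Dox replicate 1 was left out. Of the 8 genes 3 were higher and 1 lower with Dox in both experiments, and 4 were in opposite directions. Eif4a2, a helicase that unwinds the mRNA leader, and Eif4b, which stimulates it, were higher in both experiments, by 0.31 and 0.13 and by 0.20 and 0.23 (adjusted p = 0.0973 and 0.0782). The values of Eif4b were -0.20 and -0.07 on the untreated arrays, 0.00 and 0.16 with Dox, and 0.07 and 0.09 with Dox+4μ8c. For Eif4a2 most of the change came from 1 of its 2 probesets (0.55 and 0.23, compared with 0.08 and 0.02). Eif4e, the cap-binding subunit, as the mean of 3 probesets, did not vary by more than 0.05 from 0 on any array and differed by 0.01 (95% interval -0.10 to 0.12). Its single probesets varied more, down to -0.15 on the Dox+4μ8c array of experiment 2 and up to 0.09 on that of experiment 1. Eif4a1, the paralogue of Eif4a2, was at -0.05. The scaffold genes Eif4g1, Eif4g2 and Eif4g3 and the helicase cofactor gene Eif4h had small positive values in experiment 1 (0.03 to 0.08) and negative ones in experiment 2 (-0.15 to -0.23). In experiment 2, probesets of Eif4g1 were at -0.48, 0.11, -0.43 and 0.19. The 4 negative values all use the Dox array with the widest spread, whose part in them was not tested. Without probesets listed at 0 throughout experiment 1, the mean change of Eif4g1 was -0.08 instead of -0.04, and that of Eif4e 0.02 instead of 0.01.

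**Figure D3:**
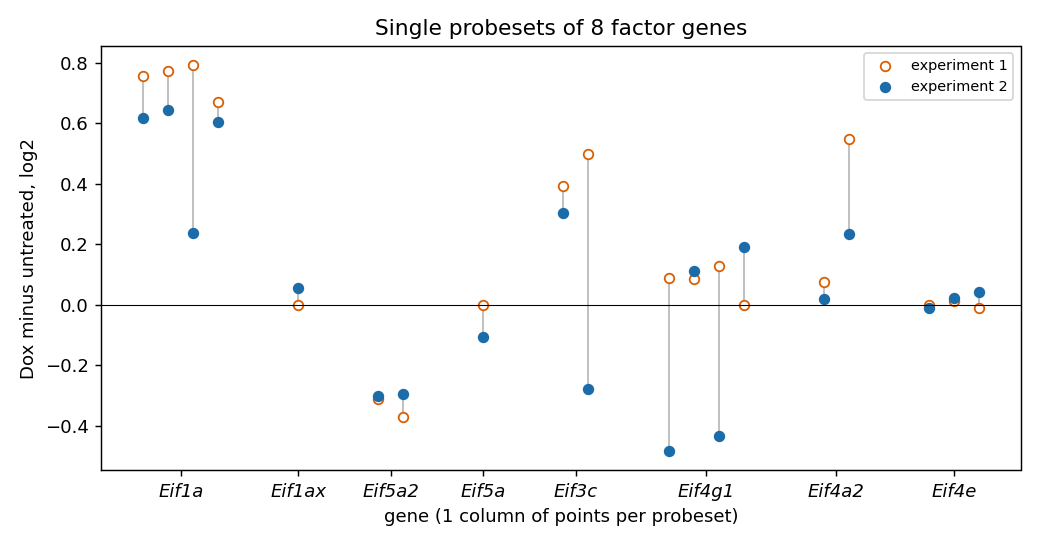
Difference in log2 value between Dox and untreated arrays for the single probesets of 8 factor genes, 1 column of points per probeset, in experiment 1 (open circles) and experiment 2 (filled circles). The 4 probesets of Eif1a and the 2 of Eif5a2 agree in sign in both experiments, whereas those of Eif3c and Eif4g1 part in experiment 2.

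Inhibitors and homologues of the cap-binding protein gave no call. Eif4ebp2, a repressor that competes with eIF4G for eIF4E, was at 0.01 in experiment 1 and -0.25 in experiment 2 (mean -0.12, adjusted p = 0.41). It passed only without Dox replicate 1 (adjusted p = 0.0395), where the Dox group is the array with the wide spread. Eif4ebp3, of the same family, was at 0.21 and 0.02. Eif4e2, a cap-binding homologue that represses translation, and Eif4e3 were at 0.00 and -0.08. Eif4enif1, the transporter of eIF4E, was at 0.01, and Eif4a3, a helicase of the exon junction complex, at -0.05.

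The lowest change with Dox was that of Eif5a2. It encodes the second isoform of eIF5A, the hypusine-containing factor that relieves stalled ribosomes. Its values were 0.10 and -0.08 on the untreated arrays, -0.24 and -0.37 with Dox, and 0.00 and 0.08 with Dox+4μ8c. The Dox array was lowest in each experiment. The change was -0.34 and -0.30, on average -0.32 (SE 0.07), which did not pass (adjusted p = 0.0537). Its 2 probesets were close, at -0.31 and -0.37 in experiment 1 and at -0.30 in experiment 2. The change passed without Dox replicate 1 (adjusted p = 0.0312) and when probesets listed at 0 throughout experiment 1 were left out (adjusted p = 0.0498). Eif5a, the common isoform, was at 0.00 and -0.11 (adjusted p = 0.61), and Eif6, which keeps free large subunits apart from small ones, at 0.00 and 0.16 (adjusted p = 0.49).

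None of the elongation factor genes passed in any comparison. Eef1a1, the general isoform of eEF1A, was between -0.02 and 0.03 on all 6 arrays and changed by 0.01 with Dox (95% interval -0.10 to 0.12). Eef1a2, the isoform of neurons, muscle and endocrine cells, was at -0.05 and -0.02 with Dox (mean -0.03, adjusted p = 0.72). One of its 2 probesets was listed at 0 throughout experiment 1, and without it the change was -0.14 (adjusted p = 0.21). The eEF1B subunit genes Eef1b2, Eef1d and Eef1g were at 0.01, 0.07 and 0.05. Eef1e1, whose product belongs to the multisynthetase complex, was at 0.09 and 0.13 (mean 0.11, adjusted p = 0.27). Eef2 was at -0.07 and -0.03 on the untreated arrays, 0.01 and 0.13 with Dox, and 0.00 and 0.03 with Dox+4μ8c, a change of 0.12 with Dox (adjusted p = 0.26). A probeset of Eef2 changed by 0.161 and 0.165 in experiments 1 and 2. Its other probeset was listed at 0 throughout experiment 1 and changed by 0.15 in experiment 2.

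Of the enzymes that modify elongation factors, Eef2k, the kinase that inactivates eEF2, was lower with Dox in both experiments, by 0.18 and 0.15 (mean -0.17, SE 0.06, adjusted p = 0.17). Its probeset listed at 0 throughout experiment 1 had a mean change of 0.02, and its other probesets -0.19, -0.28 and -0.22. Eef1akmt4, a lysine methyltransferase of eEF1A, was higher by 0.19 and 0.15 (mean 0.17, adjusted p = 0.11). Eef1akmt1 went from -0.21 to 0.07, and Eef1akmt2 was at 0.00 in experiment 1 and -0.01 in experiment 2.

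The effect of 4μ8c on these mRNAs in the presence of Dox was read from Dox+4μ8c against Dox. No array here had 4μ8c alone or a different IRE1 inhibitor. Loss of IRE1 activity therefore cannot be told apart from other actions of 4μ8c in this comparison. None of the 54 genes passed in either direction, compared with 1.61% of all genes as lower and 0.175% as higher. At an unadjusted p under 0.05, 3 were lower and 1 higher (5.56% and 1.85%, compared with 8.44% and 2.79% of all genes). The 3 were Eif1a, Eif1ad and Eif4e2, and the 1 was Eif5a2. None differed by 1.5 fold (0.0397% of all genes were higher and 0.357% lower by that much). The median difference was -0.01, as in all genes, and ranged from -0.19 to 0.34. The 95% interval lay within a 1.5 fold change for all 54 genes, and for 12396 of all 12603 genes. Again the 54 include the 6 genes that could show no change in experiment 1.

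Eif1a was lower with the inhibitor in both experiments, by 0.15 and 0.22 (mean -0.19, SE 0.08, 95% interval -0.372 to -0.004, adjusted p = 0.43). Eif1ad was lower by 0.13 and 0.22 (mean -0.17, adjusted p = 0.25) and Eif4e2 by 0.08 and 0.19 (mean -0.13, adjusted p = 0.41). Eif5a2 was higher by 0.24 and 0.45 (mean 0.34, SE 0.07, adjusted p = 0.0899), or 1.27 fold, and passed without Dox replicate 1. For Eif2s2 and Eif2b3 the difference was 0.00 (95% interval -0.11 to 0.12) and -0.03 (-0.17 to 0.12). For Eif4b and Eif4a2 it was 0.00 and 0.01. Among the genes of elongation it was 0.01 for Eef1a1, -0.06 for Eef1a2 and -0.05 for Eef2. The Eef1a2 probeset with values in both experiments was at -0.095 and -0.184, and the other, listed at 0 throughout experiment 1, at 0.03 in experiment 2.

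Against untreated cells, Eif1a was the only factor that passed with Dox+4μ8c, as higher (1.85% of the 54 genes, compared with 1.17% of all genes), and none passed as lower, compared with 1.13% of all genes. At an unadjusted p under 0.05, 9 were higher and 3 lower (16.7% and 5.56%, compared with 6.27% and 9.15% of all genes). None differed by 1.5 fold (0.302% of all genes were higher and 0.159% lower). The change of Eif1a was 0.60 and 0.30 (mean 0.45, SE 0.08, adjusted p = 0.0464), or 1.37 fold. This call was lost without the experiment term (adjusted p = 0.232), with each array centred on its median (0.0545), after quantile normalization (0.0664), without untreated replicate 1 (0.154) and without Dox+4μ8c replicate 1 or 2 (0.330 and 0.190). Eif2s2 was at 0.25 (adjusted p = 0.0556) and Eif2b3 at 0.27 (adjusted p = 0.0835). Leaving out either Dox array gives the same fit for this comparison, with the same mean changes and a different error term. In that fit Eif2s2, Eif2b3, Eef1akmt4, Eif2a and Eif3c also passed as higher, and Eef1akmt1 as lower. Eif2a, an alternative initiator tRNA carrier, was at 0.30 and 0.20 (mean 0.25, adjusted p = 0.0794). Eif3c was at 0.36 and 0.20 (mean 0.28, adjusted p = 0.24). Lower values were those of Eef1akmt1 (-0.26 and -0.17, adjusted p = 0.22) and Eif2b5 (-0.11 and -0.23, adjusted p = 0.17). Eef1a2 had a mean of -0.10 (adjusted p = 0.40). Its probeset with values in both experiments was at -0.19 and -0.38, and the other at 0.00 and 0.185. Both treatments share the untreated arrays, so that their changes are not independent.

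**Figure D4:**
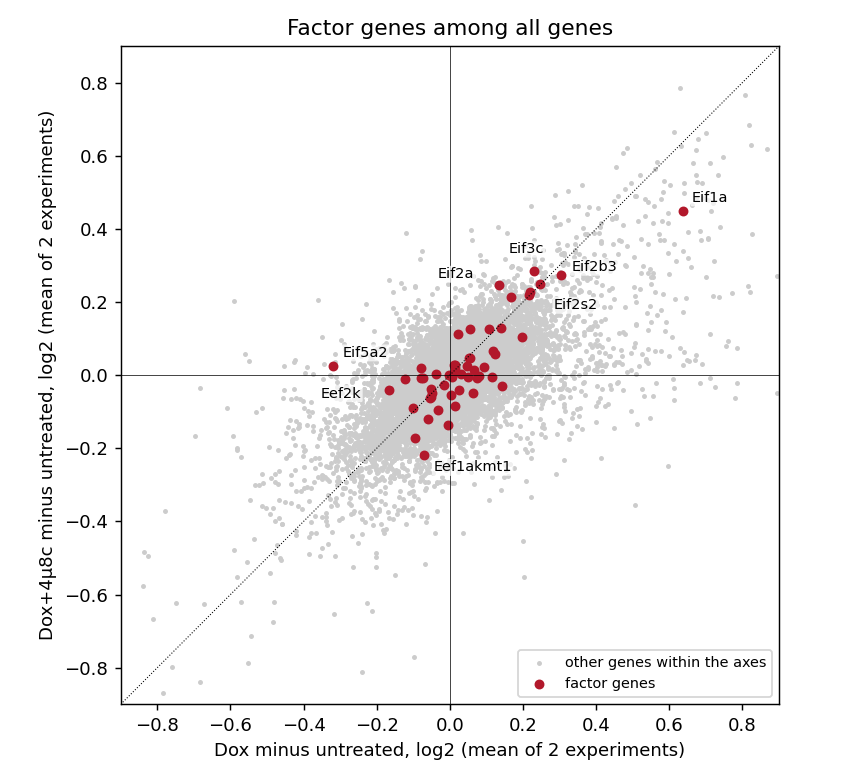
Mean log2 change with Dox (x axis) and with Dox+4μ8c (y axis) against untreated cells for the 54 factor genes (red) and the other genes that lie within the axes (grey), with the line of equal change dotted. Both axes share the untreated arrays. Eif1a is farthest right at 0.64 and 0.45, and Eif5a2 is farthest left at -0.32 and 0.03.

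Other genes of translation control were read from a list of 42, of which 37 were measured. With Dox 4 rose and none fell, compared with 4.42% and 2.01% of all genes. The 4 were Eif2ak3, Abce1, Gigyf2 and Tsfm. Eif2ak3, which encodes PERK itself, had values of -0.22 and 0.03 on the untreated arrays, 0.66 and 0.66 with Dox, and 0.00 and -0.03 with Dox+4μ8c. It rose by 0.75 (SE 0.08, adjusted p = 0.0043), or 1.69 fold, but not after quantile normalization (adjusted p = 0.0685), and was lower by 0.67 with the inhibitor (adjusted p = 0.0179). This was the only call of the 37 genes for Dox+4μ8c against Dox, and it was lost when either Dox+4μ8c array was left out (adjusted p = 0.0991 and 0.313) or after quantile normalization (adjusted p = 0.166). The other eIF2 kinase genes Eif2ak1, Eif2ak2 and Eif2ak4 were at 0.04, 0.06 and -0.03 with Dox. Abce1, the ribosome recycling factor, rose by 0.25 (adjusted p = 0.0477), Gigyf2, a partner of the repressor Eif4e2, by 0.24 (adjusted p = 0.0392), and Tsfm, the mitochondrial exchange factor, by 0.25 (adjusted p = 0.0477). Each of these 3 calls was lost with either untreated array or either Dox+4μ8c array left out, where the latter is the same fit for both arrays. Ppp1r15a, the subunit that directs a phosphatase to eIF2α, was at 0.52 and 0.38 with Dox (mean 0.45, adjusted p = 0.0684) and at 0.45 and -0.03 with Dox+4μ8c. Eif4ebp1, an eIF4E repressor induced by ATF4 in other settings, was at -0.14 and 0.05 with Dox (mean -0.05, 95% interval -0.21 to 0.12). Against untreated cells none of the 37 genes passed with Dox+4μ8c.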

How the data were processed

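RNA, 200 ng per sample, was labelled by a 3′ IVT protocol and hybridized to rat arrays. The authors deposited RMA log2 values (version not given in the sources used here), which lie around 0 for each probeset: 100% of the 25476 probesets have a median of 0 across the arrays of experiment 1 and 0.836% across those of experiment 2, whose centring is not known. Signal over background cannot be read from such values, and the number of arrays limits the precision. The 17978 probesets with 1 symbol were averaged per gene with no filter on dim probes. The test was limma 3.58.1 (R 4.3.3, lmFit and eBayes, two-sided) on 3 groups plus the experiment, with 2 residual and 4.25 prior degrees of freedom. A call was an adjusted p under 0.05 over 12603 genes, and the procedure was tested on simulated data. Those data had independent normal noise, no experiment effect and no genes fixed at 0. They therefore cannot show the error rate in the real arrays. The replicate number of the labels was taken as the independent experiment of the study's methods. Deviations from group means of same-numbered arrays correlated at 0.03, 0.10 and 0.03. Centring removes, at least in experiment 1, a shift shared by its arrays, so that these correlations cannot test the pairing. P-values rest on the spread between these arrays, which the prior draws largely from all genes and not from the tested gene alone.

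Members and lists were chosen with earlier results of these data known. Named genes were members past the test, the largest Dox change of each complex, a fixed set of core factors, and other translation genes past the test plus Eif4ebp1 and Ppp1r15a. Further members were named after their values were seen. Promoters came from RefSeq (GRCr8). Figures and motif counts used Python 3.11.15, pandas 2.3.3, numpy 2.4.6 and matplotlib 3.10.9. Alternatives were no experiment term, other probeset summaries and scalings, robust eBayes, each array left out, and, added after seeing the data, probesets listed at 0 throughout experiment 1 left out.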

Additional observations from a re-analysis of the deposited data

How the results depend on the processing

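Of the 3 factor genes higher with Dox than untreated, 0 passed without the replicate block (11 at an unadjusted p under 0.05, and 303 and 137 of all genes higher and lower instead of 557 and 253) and 1, Eif1a, after quantile normalization (119 and 44 of all genes). Tested singly, 4 probesets passed, of Eif1a and Eif3c. With arrays left out in turn the count was 1 to 3. The count lower with Dox, 0, became 1 without the probesets listed at 0 in experiment 1, and 0 to 2 with arrays left out (Eif5a2 and Eif4ebp2 without Dox replicate 1). With Dox+4μ8c against Dox, the count higher was 0 to 1 with arrays left out and the count lower stayed at 0 in all alternatives. With Dox+4μ8c against untreated, the 1 gene higher became 0 without the replicate block, with each array centred on its median, after quantile normalization and with single probesets, and 0 to 6 with arrays left out. The count lower was 0 to 1. Over all genes, leaving out arrays gave 177 to 1104 higher and 61 to 655 lower with Dox, 0 to 325 higher and 0 to 580 lower for Dox+4μ8c against Dox (22 and 203 with all arrays, 14 and 129 without the block, 0 and 0 after quantile normalization or with single probesets), and 8 to 318 higher and 2 to 394 lower for Dox+4μ8c against untreated (148 and 142 with all arrays, 0 and 0 without the block, 57 and 33 with single probesets, where Dox gave 490 and 164, and 101 and 92 after quantile normalization). The causes were not tested. Of 531 single-gene values under an alternative, 472 kept their side of the threshold, 48 lost and 11 gained a call, and none that passed changed sign. Among values that never passed, 16 changed sign. Where an array is dropped, the lone sample of that group is assumed to vary like the other groups. For a comparison that does not use that group, dropping either of its arrays gives the same fit and the same estimates. Such alternatives repeat each other, and the 531 values include these repeats.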
